A study of Homo sapiens with 6 samples.

Results

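The genes described here are 44 interferon-stimulated genes, meaning genes that cells transcribe when interferon acts on them. They were taken by gene name from a table of 30676 genes, and each of the 44 names was found in 1 row. The question was whether their RNA differed between cells given GIA and cells given DMSO, and how ISG15 varied from library to library beside the other members.

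RNA was sequenced from cells labelled as wild-type HCT116, a human line grown from a colorectal cancer, kept at 1% oxygen for 24 hours. GIA is a genistein isoflavonoid alkaloid per the labels, and it was given at 10 µM in 3 libraries. The 3 other libraries received the vehicle DMSO, at 0.1% per their labels. Both groups were therefore hypoxic, and no library at normal oxygen was analysed here.

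Type I and type III interferons bind receptors whose Janus kinases phosphorylate STAT proteins, STAT2 among them. STAT2 and IRF9 are part of a transcription factor that binds the interferon-stimulated response element, a short repeat of GAAA-type sequence near the start of many such genes. The products sense viral RNA, degrade or block it, alter membranes that viruses cross, or, as ISG15 does, are attached to other proteins like ubiquitin. Epithelial tumour cells often express a part of this set at a low level without added interferon.

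Library totals were 67833810, 67835059 and 64804849 estimated counts in GIA libraries 1, 2 and 3, and 55725249, 56793538 and 63542466 in DMSO libraries 1, 2 and 3. The same library order is used for all values that follow. GIA library 2 stood apart over all genes: with counts divided by 4, chi-square over its degrees of freedom was 5.51 to 8.82 between it and each other library, and 2.67 to 4.05 between all other pairs. Levels are FPKM, which divides fragments by gene length and library size, so that levels may be compared between genes. Whether the libraries of each group stem from separate cultures is not labelled, and the p-values reflect a spread between samples that may be only technical. The libraries are labelled HCT116, and of 10 epithelial markers KRT8, KRT18, KRT19, CLDN7 and ELF3 passed the filter on low values. EPCAM (0.119 to 0.335 FPKM in GIA and 0.201 to 0.305 FPKM in DMSO libraries), CDH1 (0.0165 to 0.0452 FPKM in GIA and 0.0383 to 0.0490 FPKM in DMSO libraries), VIL1 and LGALS4 were at or near 0, and CDX2 has no row in the table. Of the markers listed for fibroblasts, 3 passed the filter. DCN had 11.2 to 16.0 FPKM in GIA and 11.6 to 12.5 FPKM in DMSO libraries. PDGFRB had 3.89 to 5.38 and 3.77 to 4.20 FPKM, and COL1A1 2.38 to 3.17 and 2.23 to 2.38 FPKM, in the same order. The keratins were thus abundant while the epithelial adhesion genes EPCAM and CDH1 were nearly absent, which goes against the label in part. The identity of the cells was not tested, and HCT116 is used here only as the labelled name.

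The promoters of 5 members are shown because ISG15, IFIT1, IFITM1 and OAS1 shared a pattern across libraries and IFIT5 was the member least like ISG15. The sequences are from RefSeq on GRCh38.p14, all 5 genes lie on the plus strand, and each sequence runs 270 bases 5′ to 3′, of which the last 20 follow the RefSeq start. Capitals mark every match to GAAANNGAAA, an interferon-response-type motif, searched on both strands, so that a match on the other strand reads TTTCNNTTTC. The ISG15 sequence lies at chr1:1013247-1013516, that of IFIT1 at chr10:89392373-89392642, that of IFITM1 at chr11:313790-314059, that of OAS1 at chr12:112906712-112906981 and that of IFIT5 at chr10:89414318-89414587.
ISG15: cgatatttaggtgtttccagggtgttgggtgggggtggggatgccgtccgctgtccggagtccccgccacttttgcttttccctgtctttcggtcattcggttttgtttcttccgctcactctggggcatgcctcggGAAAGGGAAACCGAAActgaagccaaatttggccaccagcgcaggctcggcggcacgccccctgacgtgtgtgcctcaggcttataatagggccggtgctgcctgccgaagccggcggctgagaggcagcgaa
IFIT1: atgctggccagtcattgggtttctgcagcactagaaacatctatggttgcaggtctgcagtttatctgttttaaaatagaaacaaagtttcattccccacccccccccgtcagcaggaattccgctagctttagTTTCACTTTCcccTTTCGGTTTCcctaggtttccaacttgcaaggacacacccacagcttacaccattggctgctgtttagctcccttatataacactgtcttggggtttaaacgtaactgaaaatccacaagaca
IFITM1: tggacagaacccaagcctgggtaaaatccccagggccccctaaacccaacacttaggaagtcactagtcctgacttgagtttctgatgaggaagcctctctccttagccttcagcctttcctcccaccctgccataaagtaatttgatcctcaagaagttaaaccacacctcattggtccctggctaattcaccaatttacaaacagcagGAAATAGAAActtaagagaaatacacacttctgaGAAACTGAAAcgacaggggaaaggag
OAS1: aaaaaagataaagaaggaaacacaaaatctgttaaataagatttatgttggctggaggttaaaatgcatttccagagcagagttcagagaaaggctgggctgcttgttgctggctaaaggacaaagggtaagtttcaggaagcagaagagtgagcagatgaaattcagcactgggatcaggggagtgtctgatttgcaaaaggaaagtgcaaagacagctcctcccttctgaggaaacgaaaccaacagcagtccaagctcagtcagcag
IFIT5: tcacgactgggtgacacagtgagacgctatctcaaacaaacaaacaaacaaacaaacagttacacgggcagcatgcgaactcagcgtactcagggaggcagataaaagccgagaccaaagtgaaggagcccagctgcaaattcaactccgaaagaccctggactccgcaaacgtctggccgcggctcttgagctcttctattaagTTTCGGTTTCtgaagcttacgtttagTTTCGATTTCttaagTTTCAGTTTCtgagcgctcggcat
In ISG15 the motif begins 113 and 107 bases before the start, and these matches overlap. In IFIT1 it begins 116 and 103 bases before the start, in IFITM1 40 and 6 bases before it, and in IFIT5 45, 19 and 4 bases before it. These letters do not occur in the OAS1 window. It does hold gaaacgaaa, a GAAA repeat with a shorter spacer, which the search did not count.

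RefSeq promoters of 300 bases, from 250 before to 50 after the start, were matched for 34 of the 44 members. The table used held no entry for IFIT2, IFITM2, MX2, OAS2, OASL, IRF7, DHX58, USP18, GBP2 and TRIM22. The motif occurred in 21 of the 34 (61.8%), against 1255 of 35116 promoters in the table (3.57%). TTCNNNGAA, the motif type bound by STAT dimers, occurred in 8 of the 34 (23.5%), against 2689 of all promoters (7.66%); it reads the same on both strands, and overlaps between the 2 motifs were not counted. A match to these letters is a description and does not show binding.

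Between GIA and DMSO, none of the tested interferon-stimulated genes passed the test. Of the 44 members, 33 had a mean of at least 0.5 FPKM over the 6 libraries and were tested. With edgeR's quasi-likelihood test and Benjamini-Hochberg adjustment over 13721 genes, 0 of 33 were called, as was 0% of all tested genes. DESeq2 and limma also called 0 of 33. At an unadjusted edgeR p under 0.05 there was 1 member, STAT2 (3.03%), against 4.59% of all tested genes.

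Log2 fold changes, GIA over DMSO, were positive for 21 and negative for 12 of the 33, with a median of 0.03, beside a median of 0.0004 over all tested genes. They ran between -0.13 for HERC6, a relative of the ISG15 ligase, and 0.29 for IRF7, a transcription factor that amplifies interferon production. The 95% interval lay within 2-fold in either direction for 33 of 33 tested members, and within 1.5-fold for 29 of them (87.9%), against 92.9% and 83.0% of all tested genes. IRF7, UBE2L6, ISG20 and OAS2, each with a mean under 1 FPKM, were the 4 with wider intervals.

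**Figure D1:**
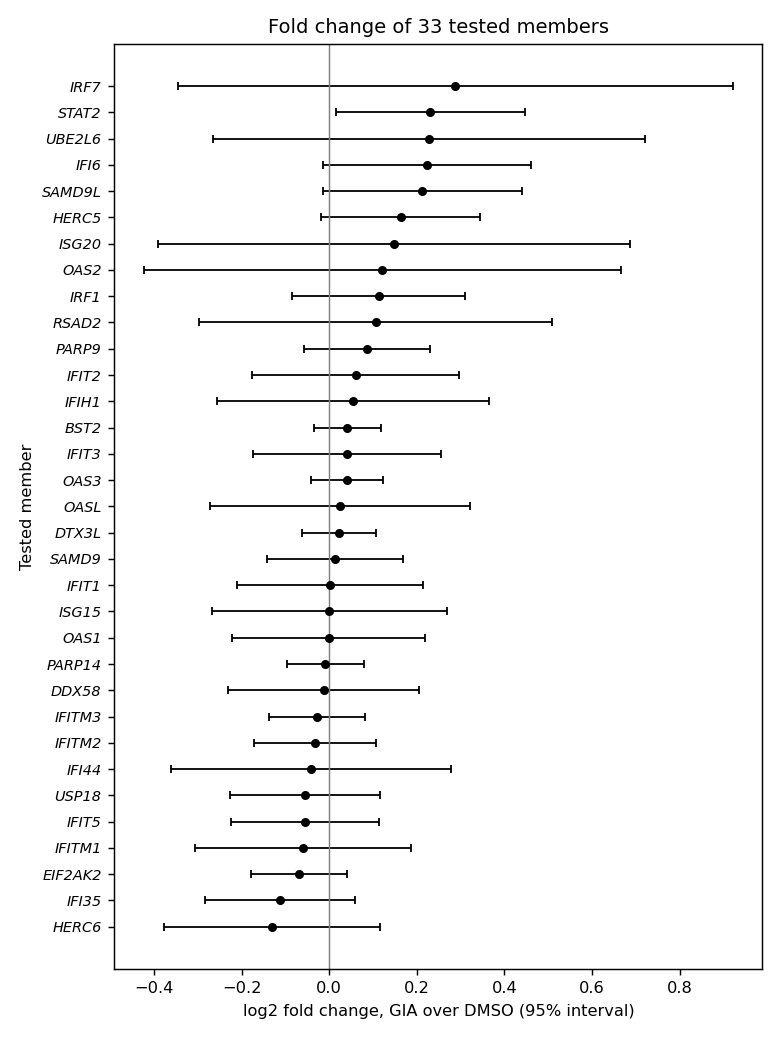
Log2 fold change, GIA over DMSO, of the 33 tested members, ordered by size. Points are edgeR estimates and bars are 95% intervals; the interval of STAT2 lies above 0 (0.01 to 0.45) and those of the other 32 include 0.

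Groups did not overlap in FPKM for 2 tested members. In SAMD9L all GIA libraries were above all DMSO libraries, which is 3.03% of members against 5.63% of all tested genes. In EIF2AK2 all GIA libraries were below all DMSO libraries, again 3.03%, against 5.6% of all tested genes. Each share stands for 1 member and is not read as a difference from the background.

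ISG15 encodes the ubiquitin-like modifier, and its gene (ENSG00000187608) spans chr1:1001138-1014540 on the plus strand in the deposited table, a model that begins upstream of the RefSeq start at base 1013497. It had 92.6, 141 and 116.4 FPKM in GIA libraries 1, 2 and 3, and 117, 115.4 and 116.6 FPKM in DMSO libraries 1, 2 and 3. GIA library 1 was the lowest and GIA library 2 the highest of the 6, while GIA library 3 lay inside the narrow DMSO range. The means were 116.7 ± 24.2 FPKM in GIA and 116.3 ± 0.823 FPKM in DMSO libraries (SD, n = 3 each). The coefficient of variation was 20.8% in GIA and 0.707% in DMSO libraries.

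ISG15 thus had nearly equal means and unequal spread. Its log2 fold change was 0.0006 ± 0.12 (SE; adjusted p = 0.999, edgeR's quasi-likelihood test with Benjamini-Hochberg adjustment), with a 95% interval of 0.831- to 1.20-fold. GIA library 2 had 1.52 times the level of GIA library 1, and the highest DMSO library had 1.01 times the level of the lowest. The estimated counts behind these levels were 5958, 9068 and 7170 in GIA and 6177, 6225 and 7040 in DMSO libraries.

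**Figure D2:**
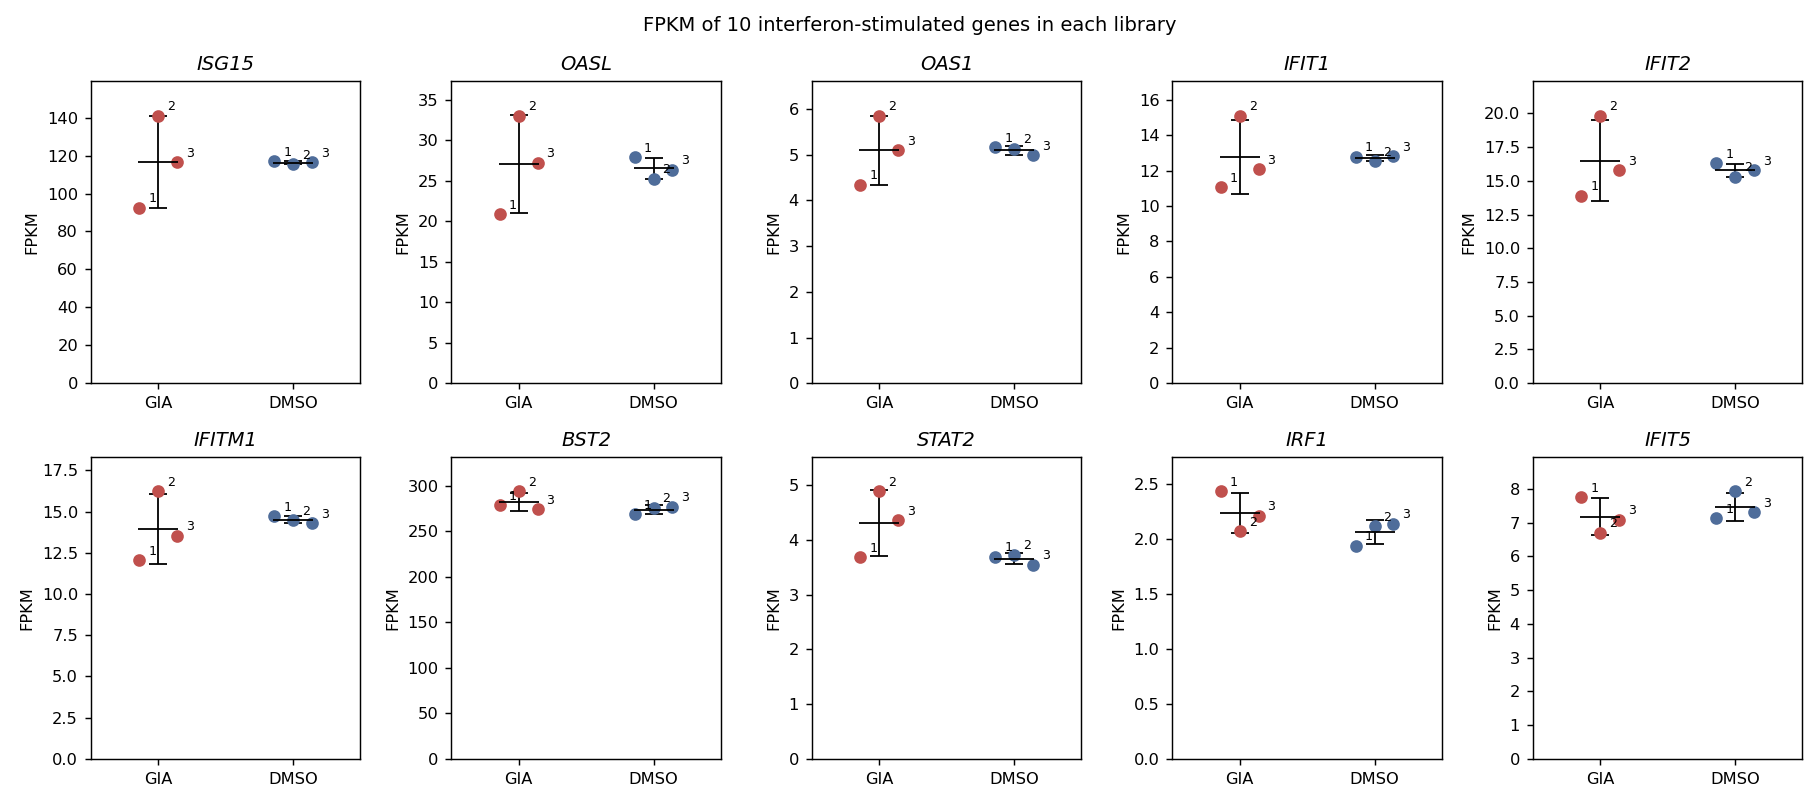
FPKM of 10 members in each library, with GIA at left and DMSO at right of each panel. Points are libraries numbered 1 to 3, the long bar is the mean and the error bar the SD (n = 3); in ISG15, OASL, OAS1, IFIT1, IFIT2 and IFITM1 GIA library 1 is lowest and GIA library 2 highest, and in IRF1 and IFIT5 they are not.

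The order of libraries seen for ISG15 recurred in many members. GIA library 1 was lowest and GIA library 2 highest in 12 of the 32 other tested members (37.5%), against 7.75% of all tested genes. The reverse, GIA library 2 lowest and GIA library 1 highest, was found in 0 of 32, against 6.57% of all tested genes. The 12 were DDX58, IFIH1, IFIT1, IFIT2, IFIT3, OAS1, OAS2, OASL, IFITM1, IFITM2, IFITM3 and IFI44. Among them GIA library 2 had 1.14 to 2.04 times the level of GIA library 1, while the highest DMSO library had 1.02 to 1.17 times the lowest. In 8 of the 12, GIA library 3 lay within the DMSO range, as it did for ISG15.

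Each end of the pattern was also seen by itself. Of the 32, 14 (43.75%) were lowest in GIA library 1, against 17.4% of all tested genes. Highest in GIA library 2 were 20 (62.5%), against 29.6% of all tested genes. GIA library 2 was above GIA library 1 in 26 of 32 (81.25%), against 53.8% of all tested genes. The SD over libraries of log2(FPKM + 0.5) had a median of 0.12 in GIA and 0.06 in DMSO libraries over these members, and of 0.08 in GIA and 0.06 in DMSO libraries over all tested genes. The members share the same 6 libraries, so they are not independent observations of a library. In bulk RNA, a different number of cells expressing a gene and a different amount of RNA per cell cannot be told apart.

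**Figure D3:**
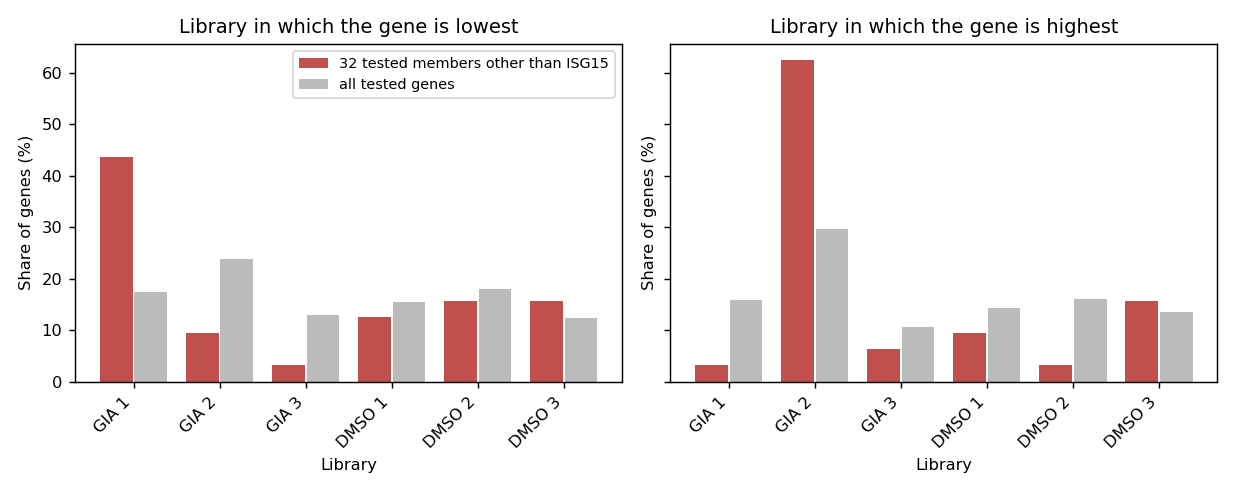
Share of genes, in percent, that are lowest (left) or highest (right) in each library. Red bars are the 32 tested members other than ISG15 and grey bars the 13721 tested genes; GIA library 1 is the lowest for 43.75% of these members, and GIA library 2 is the highest for 62.5%.

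Likeness to ISG15 was measured as Pearson's r of log2(FPKM + 0.5) over the 6 libraries, as a description. Its median was 0.58 over the 32 other tested members and 0.07 over all tested genes. It exceeded 0.9 in 9 of the 32, against 2.15% of all tested genes. OAS1 (r = 0.99) ranked 3 and OASL (r = 0.98) ranked 14 among all tested genes in likeness to ISG15, and IFITM1 (0.96) and IFIT1 (0.95) followed among the members. GIA libraries 1 and 2 were farthest from the ISG15 median, and without them the median r of the members was 0.22. Over the 4 remaining libraries ISG15 spanned only 115.4 to 117 FPKM, and r was -0.15 for OAS1, 0.89 for OASL, 0.05 for IFITM1 and 0.30 for IFIT1. Of the 9 members with r above 0.9, 5 had an r below 0.4 over these 4 libraries. They were OAS1, IFITM1, IFIT1, IFIT3 (-0.67) and OAS2 (0.22), whose likeness to ISG15 therefore rests on GIA libraries 1 and 2.

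**Figure D4:**
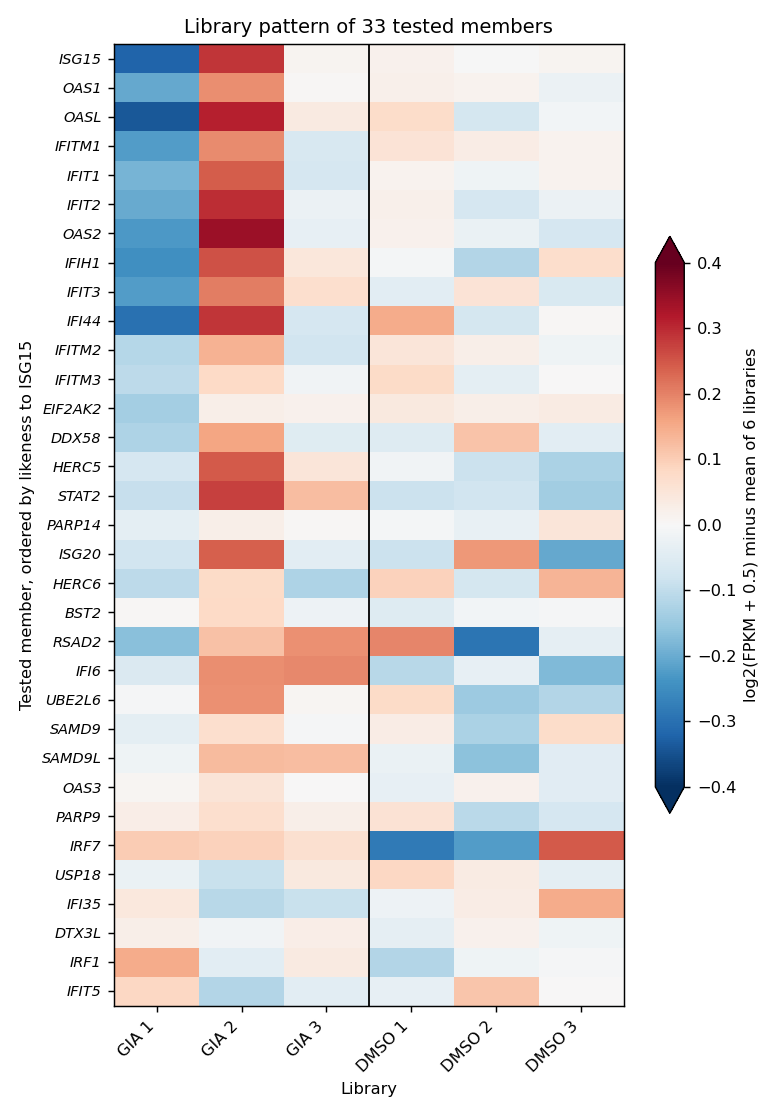
Library pattern of the 33 tested members, as log2(FPKM + 0.5) minus the mean of the 6 libraries, with members ordered by likeness to ISG15. Blue is below and red above the gene's mean; the upper rows are blue in GIA library 1 and red in GIA library 2, and the bottom rows, IRF1 (r = -0.72) and IFIT5 (r = -0.75), are not.

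Summed over all 44 members the level was 812.7, 957.3 and 867.7 FPKM in GIA and 879.2, 863.3 and 870.1 FPKM in DMSO libraries. GIA library 1 had the lowest sum and GIA library 2 the highest. The median of the tested members, relative to each gene's own mean on the log2 scale, was -0.09, 0.14 and 0.01 in GIA and 0.01, -0.03 and -0.02 in DMSO libraries. The same median over all tested genes lay between -0.0026 in GIA library 1 and 0.01 in GIA library 2.

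The summed levels of 2 marker lists were at an extreme in GIA library 2 as well. The summed level of the epithelial markers was 477, 413.4 and 457.2 FPKM in GIA and 462.1, 464.9 and 465.9 FPKM in DMSO libraries, lowest in GIA library 2. KRT18, with 273.5, 219 and 255.1 FPKM in GIA and 258.9, 266.7 and 259.6 FPKM in DMSO libraries, and KRT8 carried that low value. CLDN7, with 10.8, 14.9 and 11.1 FPKM in GIA and 11.8, 10.2 and 10.7 FPKM in DMSO libraries, and ELF3 were instead highest in GIA library 2, and KRT19 was not lowest there. The summed level of the fibroblast markers was 17.8, 24.6 and 19.7 FPKM in GIA and 18.9, 17.7 and 18.9 FPKM in DMSO libraries, highest in GIA library 2. Of that list COL1A1, PDGFRB and DCN were tested and 0 of 3 were called, COL3A1 and THY1 were at or near 0, and COL1A2 and PDGFRA have no row. DCN, which encodes the matrix proteoglycan decorin, had 11.2, 16.0 and 13.1 FPKM in GIA and 12.5, 11.6 and 12.3 FPKM in DMSO libraries. The part of these markers in the pattern of the interferon-stimulated genes was not tested. The leukocyte markers PTPRC, LYZ and CD14 were at or near 0 (0.174 FPKM at most), and only CD68 of that list was tested. The mitochondrially encoded share of counts was 4.94%, 4.76% and 5.06% in GIA and 4.89%, 4.71% and 4.56% in DMSO libraries.

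The transcription factors that carry the interferon signal had low levels. STAT2, a subunit of the interferon-activated factor, had 3.68, 4.88 and 4.35 FPKM in GIA and 3.69, 3.72 and 3.55 FPKM in DMSO libraries. GIA libraries 2 and 3 were above all DMSO libraries, and GIA library 1 was inside the DMSO range. The log2 fold change was 0.23 ± 0.10 (SE; unadjusted p = 0.039, adjusted p = 0.875, edgeR's quasi-likelihood test with Benjamini-Hochberg adjustment). IRF1, an early interferon-gamma target that itself binds such promoters, had 2.43, 2.07 and 2.21 FPKM in GIA and 1.94, 2.11 and 2.13 FPKM in DMSO libraries. Its highest value was in GIA library 1, the groups overlapped, and its log2 fold change was 0.11 ± 0.09 (SE). IRF7 was tested at 0.618 to 0.648 FPKM in GIA and 0.378 to 0.766 FPKM in DMSO libraries. IRF9, a DNA-binding subunit of the same factor, was not tested at 0.293 to 0.502 FPKM in GIA and 0.350 to 0.669 FPKM in DMSO libraries. Its gene model overlaps AL136295 on the same strand over 5188 bases, so its share of the reads is uncertain. None of the 3 tested factors had the library order of ISG15.

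Both tested RNA sensors had that order. IFIH1, which encodes MDA5, a sensor of long double-stranded RNA, had 2.35, 3.54 and 2.99 FPKM in GIA and 2.86, 2.62 and 3.05 FPKM in DMSO libraries. DDX58, which encodes RIG-I, a sensor of short RNA with a 5′ triphosphate, had 3.63, 4.52 and 3.85 FPKM in GIA and 3.84, 4.37 and 3.87 FPKM in DMSO libraries. In each the groups overlapped, with GIA library 1 below and GIA library 2 above every DMSO library. DHX58, which encodes their relative LGP2, was not tested and had 0.263 to 0.578 FPKM in GIA and 0.244 to 0.398 FPKM in DMSO libraries.

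Among the members that act in ISG15 conjugation, 1 of 5 tested, ISG15 itself, had the order of low GIA library 1 and high GIA library 2. HERC5, the main ligase that attaches ISG15 to proteins, had 7.14, 8.98 and 7.77 FPKM in GIA and 7.43, 7.04 and 6.83 FPKM in DMSO libraries. GIA libraries 2 and 3 were above all DMSO libraries and GIA library 1 was inside their range. Its log2 fold change was 0.16 ± 0.08 (SE; unadjusted p = 0.072, adjusted p = 0.875, edgeR's quasi-likelihood test with Benjamini-Hochberg adjustment). USP18, which removes ISG15 from proteins and restrains the type I receptor, ranged between 8.93 and 9.80 FPKM in GIA and between 9.26 and 10.1 FPKM in DMSO libraries. It was lowest in GIA library 2, where ISG15 was highest. UBE2L6, the conjugating enzyme, ranged between 0.669 and 0.830 FPKM in GIA and between 0.560 and 0.736 FPKM in DMSO libraries, and HERC6 between 1.67 and 1.99 FPKM in GIA and between 1.75 and 2.09 FPKM in DMSO libraries.

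Of the effectors directed at RNA, 6 of 10 tested members had the ISG15 order. They include the IFIT proteins, which bind viral RNA at its 5′ end, and the OAS enzymes, which make the 2-5A messenger that activates RNase L. OASL, an OAS relative without that enzyme activity, had 20.9, 33.0 and 27.2 FPKM in GIA and 27.9, 25.3 and 26.3 FPKM in DMSO libraries. OAS1 had 4.34, 5.85 and 5.10 FPKM in GIA and 5.16, 5.13 and 4.99 FPKM in DMSO libraries. OAS2 had 0.439, 0.895 and 0.575 FPKM in GIA and 0.613, 0.581 and 0.551 FPKM in DMSO libraries. In all 3 genes the DMSO libraries lay between GIA library 1 and GIA library 2. The ratio of GIA library 2 to GIA library 1 was 1.58 for OASL, 1.35 for OAS1 and 2.04 for OAS2. OAS3, of the same family, stayed between 11.5 and 11.9 FPKM in GIA and between 11.1 and 11.6 FPKM in DMSO libraries, a ratio of 1.03.

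IFIT1 had 11.1, 15.1 and 12.1 FPKM in GIA and 12.8, 12.5 and 12.8 FPKM in DMSO libraries. IFIT2 had 13.9, 19.8 and 15.8 FPKM in GIA and 16.3, 15.3 and 15.8 FPKM in DMSO libraries. IFIT3 had 16.5, 22.3 and 20.2 FPKM in GIA and 18.8, 20.1 and 18.5 FPKM in DMSO libraries. GIA library 1 was below and GIA library 2 above every DMSO library in these 3 neighbouring genes. IFIT5, their neighbour with 3 copies of the motif in its promoter as shown above, had 7.76, 6.70 and 7.09 FPKM in GIA and 7.13, 7.93 and 7.32 FPKM in DMSO libraries. It was lowest in GIA library 2, and its log2 fold change was -0.06 ± 0.07 (SE). The models of IFIT1, IFIT2 and IFIT3 overlap LIPA on the opposite strand. The libraries were strand-specific per the labels, but the sources used here do not state whether counting used the strand. LIPA, a lysosomal lipase gene, had 18.5, 18.6 and 17.8 FPKM in GIA and 18.9, 18.6 and 18.3 FPKM in DMSO libraries, which is not the order of the IFIT genes.

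EIF2AK2, which encodes the kinase PKR that halts translation on binding double-stranded RNA, had 7.20, 8.11 and 8.08 FPKM in GIA and 8.21, 8.12 and 8.17 FPKM in DMSO libraries. The 3 GIA libraries were below the 3 DMSO libraries, GIA libraries 2 and 3 only narrowly so. Its log2 fold change was -0.07 ± 0.05 (SE; adjusted p = 0.875, edgeR's quasi-likelihood test with Benjamini-Hochberg adjustment). ISG20, an exonuclease, ranged between 0.450 and 0.682 FPKM in GIA and between 0.369 and 0.630 FPKM in DMSO libraries.

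The membrane restriction factors were the most abundant group. BST2, or tetherin, which holds budding virus at the cell surface, had 279, 293.8 and 274.4 FPKM in GIA and 268.6, 276.1 and 277.1 FPKM in DMSO libraries. The groups overlapped, and the log2 fold change was 0.04 ± 0.03 (SE). IFITM3, which blocks virus entry from endosomes, had 190.1, 216 and 202.6 FPKM in GIA and 215.7, 199.2 and 204.8 FPKM in DMSO libraries. IFITM2 had 50.7, 60.5 and 52.0 FPKM in GIA and 56.7, 55.8 and 54.2 FPKM in DMSO libraries. IFITM1, which acts mainly at the cell surface, had 12.1, 16.2 and 13.5 FPKM in GIA and 14.7, 14.5 and 14.3 FPKM in DMSO libraries. The 3 IFITM genes shared the order of ISG15, with ratios of GIA library 2 to GIA library 1 of 1.14 for IFITM3, 1.19 for IFITM2 and 1.34 for IFITM1, against 1.05 for BST2. The models of IFITM1 and IFITM2 share 1767 bases on the same strand and the IFITM genes are close copies of each other, so the division of reads among them is uncertain.

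PARP9, PARP14 and DTX3L, which act together in ADP-ribosylation and ubiquitination after interferon, did not show the ISG15 order (0 of 3 tested). DTX3L, the ubiquitin ligase of the group, had 13.1, 12.8 and 13.2 FPKM in GIA and 12.6, 13.1 and 12.8 FPKM in DMSO libraries, with overlapping groups and a log2 fold change of 0.02 ± 0.04 (SE). PARP9 ranged between 3.35 and 3.47 FPKM in GIA and between 3.01 and 3.44 FPKM in DMSO libraries. PARP14 ranged between 6.85 and 7.16 FPKM in GIA and between 6.89 and 7.29 FPKM in DMSO libraries.

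Of the 6 other tested members, IFI44 alone had the ISG15 order. It had 6.93, 10.6 and 8.23 FPKM in GIA and 9.63, 8.20 and 8.66 FPKM in DMSO libraries, a ratio of GIA library 2 to GIA library 1 of 1.54. IFI6, a mitochondrial and endoplasmic reticulum protein gene, had 11.2, 13.3 and 13.4 FPKM in GIA and 10.8, 11.4 and 10.3 FPKM in DMSO libraries. GIA libraries 2 and 3 were above all DMSO libraries and GIA library 1 was not, and the log2 fold change was 0.22 ± 0.11 (SE; unadjusted p = 0.062, adjusted p = 0.875, edgeR's quasi-likelihood test with Benjamini-Hochberg adjustment). SAMD9L, a paralog of SAMD9 that restrains growth and poxviruses, had 1.39, 1.58 and 1.58 FPKM in GIA and 1.37, 1.20 and 1.35 FPKM in DMSO libraries. GIA library 1 exceeded the highest DMSO library narrowly, and the log2 fold change was 0.21 ± 0.10 (SE; unadjusted p = 0.064). IFI35 had 12.2, 10.9 and 11.1 FPKM in GIA and 11.7, 12.1 and 13.2 FPKM in DMSO libraries, with overlapping groups and a log2 fold change of -0.11 ± 0.08 (SE). SAMD9 ranged between 4.48 and 4.85 FPKM in GIA and between 4.18 and 4.88 FPKM in DMSO libraries, and RSAD2, or viperin, between 1.43 and 1.96 FPKM in GIA and between 1.27 and 1.98 FPKM in DMSO libraries.

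The 11 members below 0.5 FPKM were IRF9, DHX58, MX1, MX2, GBP1, GBP2, IFI27, IFI44L, XAF1, TRIM22 and CMPK2. MX1 and MX2, dynamin-like GTPases that trap viral particles and that interferon induces strongly, were both near 0. MX1 had 0.0637 to 0.112 FPKM in GIA and 0.0394 to 0.0526 FPKM in DMSO libraries, and MX2 had 0.0037 to 0.0104 FPKM in GIA and 0 to 0.00745 FPKM in DMSO libraries. IFI27, IFI44L, TRIM22, XAF1 and CMPK2 were at most at 0.232 FPKM, and GBP1 reached 0.523 FPKM. All GIA libraries were above all DMSO libraries in 2 of the 11, MX1 and GBP2, both named for that reason after their values were seen. Of all genes under the filter, 3.85% were placed so. GBP2, a guanylate-binding GTPase, had 0.388, 0.761 and 0.451 FPKM in GIA and 0.300, 0.273 and 0.231 FPKM in DMSO libraries. Without the filter its log2 fold change was 0.98 ± 0.27 (SE; unadjusted p = 0.0067) and that of MX1 0.79 ± 0.32 (SE; unadjusted p = 0.042), each with an adjusted p of 0.751 in edgeR's quasi-likelihood test with Benjamini-Hochberg adjustment. In that fit 2.83% of all genes under the filter had an unadjusted p under 0.05.

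The median of the tested members followed which GIA library was left out. It was 0.09 without GIA library 1, with 28 of 33 positive, and -0.06 without GIA library 2, with 12 of 33 positive. Without GIA library 3 it was 0.02, and without DMSO libraries 1, 2 or 3 it was 0.03, 0.0059 and 0.02. Without both GIA libraries 1 and 2, which leaves 1 GIA library assumed to vary like the DMSO libraries, it was 0.0049. The median of all tested genes lay between -0.0011 and 0.0006 in these fits. At an unadjusted p under 0.05 there were 6 members (18.2%) when GIA library 1 was left out, against 10.3% of all tested genes, and 2 members (6.06%) when GIA library 2 was, against 4.21% of all tested genes. In each of these fits 0 members were called.

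**Figure D5:**
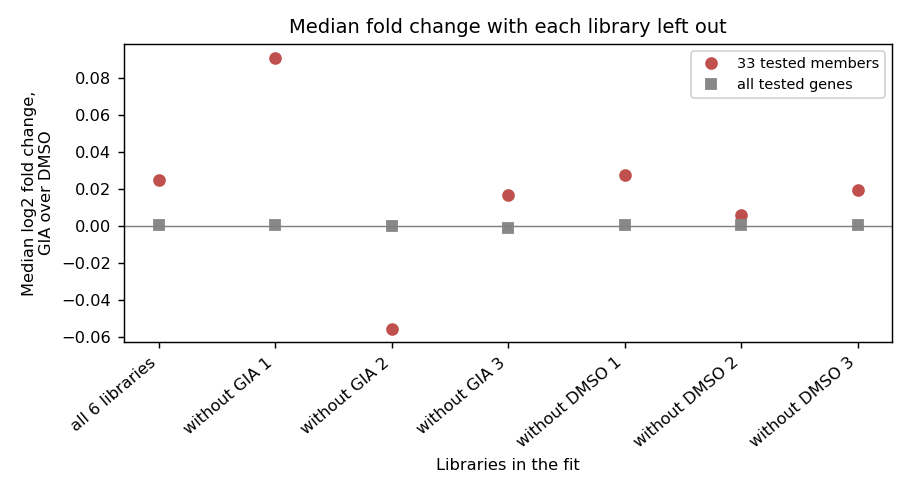
Median log2 fold change, GIA over DMSO, of the 33 tested members (red circles) and of all tested genes (grey squares), with all 6 libraries and with each left out in turn. The members' median is 0.09 without GIA library 1 and -0.06 without GIA library 2, while that of all tested genes stays near 0.

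Genes upstream of these members, and interferon-induced genes outside them, were read from 7 further lists, with 0 genes called by edgeR in any list. Of 59 distinct genes tested, 28 had a positive and 31 a negative log2 fold change, the median was -0.0042, and 4 had an unadjusted p under 0.05. The ISG15 order was found in 7 of the 59 (11.9%), against 7.75% of all tested genes. They were IFNGR1, ARIH1, APOL1, PSMB8, TDRD7, SHFL and CCL5, named after their values were seen. By list, the order was found in 5 of 24 tested other interferon-induced genes, which are the last 5 named. It was found in 1 of 9 receptors and kinases and in 1 of 4 genes listed for ISG15 conjugation. None of the 10 sensors and adaptors, 6 transducers and brakes or 7 limits on self nucleic acids had it. CCL5, a chemokine gene, had 15.5, 26.2 and 21.0 FPKM in GIA and 19.5, 18.2 and 17.7 FPKM in DMSO libraries.

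Receptor subunits and Janus kinases were all expressed, with 9 of 9 tested, 6 positive, 3 negative and a median log2 fold change of 0.03. JAK2, a kinase of the interferon-gamma receptor, had a log2 fold change of 0.24 (unadjusted p = 0.060, edgeR). IFNAR2, a subunit of the type I receptor, had 4.47, 5.10 and 4.48 FPKM in GIA and 4.21, 3.64 and 4.54 FPKM in DMSO libraries (unadjusted p = 0.089, edgeR). Of the transducers and brakes, 6 of 7 were tested with a median of 0.04. SOCS3, a brake on Janus kinases, had a log2 fold change of 0.13 (unadjusted p = 0.126) and PIAS1 of 0.05 (unadjusted p = 0.289, both from edgeR).

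Interferon genes themselves were near 0, with 7 of 10 in the table and 0 tested. IFNB1 had 0.131, 0.282 and 0.0622 FPKM in GIA and 0.432, 0.0761 and 0 FPKM in DMSO libraries. IFNE, the epithelial type I interferon, had 0.308, 0.641 and 0.416 FPKM in GIA and 0.0962, 0.0583 and 0.159 FPKM in DMSO libraries. Its groups did not overlap, and it was named after its values were seen. Without the filter its log2 fold change was 2.03, with an adjusted p of 0.751 in edgeR's quasi-likelihood test with Benjamini-Hochberg adjustment.

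Nucleic acid sensors and adaptors had 10 of 12 tested, 3 positive and 7 negative, with a median log2 fold change of -0.01. TRAF3, an adaptor of the sensors, had a log2 fold change of -0.11 (unadjusted p = 0.066) and MAVS, the mitochondrial adaptor of MDA5 and RIG-I, of 0.05 (unadjusted p = 0.209, both from edgeR). Among 7 genes that limit self nucleic acids the median was -0.0042. DNASE2, a lysosomal nuclease, had a log2 fold change of 0.11 (unadjusted p = 0.030) and TREX1, a cytosolic exonuclease, of 0.45 (unadjusted p = 0.171, both from edgeR). In the list drawn up for ISG15 conjugation outside the members, 4 of 5 genes were tested. A place on that list does not show that a gene acts on ISG15. CYLD had a log2 fold change of -0.18 (unadjusted p = 0.025) and USP16 of -0.05 (unadjusted p = 0.239, both from edgeR). UBA7, the activating enzyme that begins ISG15 conjugation, was not tested at 0.0963 to 0.118 FPKM in GIA and 0.0377 to 0.0811 FPKM in DMSO libraries.

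The list of other interferon-induced genes held 31 symbols, which include an older and the current name of SHFL. Of these, 24 were tested, 11 positive and 13 negative, with a median log2 fold change of -0.01. Summed over the 29 in the table, their level was 346.9, 376.9 and 364.3 FPKM in GIA libraries. In DMSO libraries it was 360.1, 358.5 and 361.7 FPKM, so that GIA library 1 was lowest and GIA library 2 highest. LAP3, an aminopeptidase gene, had 11.6, 11.5 and 12.1 FPKM in GIA and 13.0, 13.3 and 12.5 FPKM in DMSO libraries, with all GIA libraries below (log2 fold change -0.14, unadjusted p = 0.014). LGALS3BP, a secreted glycoprotein gene, had 74.0, 81.3 and 78.0 FPKM in GIA and 72.0, 72.0 and 72.9 FPKM in DMSO libraries, with all GIA libraries above (log2 fold change 0.10, unadjusted p = 0.022). The adjusted p of both was 0.875 in edgeR's quasi-likelihood test with Benjamini-Hochberg adjustment.

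The library pattern was also set beside the promoter motif. Over 17 tested members with GAAANNGAAA in the promoter the ratio of GIA library 2 to GIA library 1 had a median of 1.19, and over 10 without it a median of 1.21. Among the 10 are OAS1, DDX58, RSAD2 and IFI35, whose windows hold GAAA repeats with a shorter spacer that was not counted. OAS1 (r = 0.99) was among the members most like ISG15 and IFI35 (r = -0.49) among those least like it. The median likeness to ISG15 was 0.70 with the motif and 0.47 without it. The 17 include ISG15 itself, and its match with itself raises the first median. These are descriptions of the members with a matched promoter, and no test was made of them.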

How the data were processed

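The table deposited by the authors gives, per the file headers, an FPKM and an estimated count for every gene in every library. Named in the submitters' processing notes are the aligner HISAT2 2.2.1, the assembler StringTie 2.1.6, DESeq2 1.22.2, FastQC 0.10.1 and cutadapt, with GRCh38 and hg38 as builds. The sources used here do not give the step each served, the annotation release or the use of strand in counting. The deposited counts were whole, so rounding the estimated counts changed nothing. The value 4 was overrepresented (6798 values, with 4183 at 3 and 2499 at 5), which leaves the number of fragments behind each count uncertain.

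Genes with a mean of at least 0.5 FPKM entered edgeR 4.0.16 (R 4.3.3; two-sided quasi-likelihood test, TMM scaling, no covariate, all 6 libraries). The threshold was a Benjamini-Hochberg adjusted p under 0.05 over 13721 genes. The biological coefficient of variation common to all genes was 11.0%. TMM factors lay between 0.997 and 1.01. No pair of libraries agreed within counting noise (chi-square per degree of freedom of at least 2.67). Intervals are 95%. The fits were tested on simulated data. DESeq2 1.42.0, limma 3.58.1 on log2 FPKM, library totals, other filters, counts divided by 4, a replicate block and each library left out were alternatives.

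The members, lists and markers were chosen with earlier results of these data known. Values per library are given for ISG15, for the 8 members of highest level, the 5 of smallest p, the 4 most and 4 least like ISG15 and the 4 of largest range. The 2 genes of smallest p in each list are named, some with a fold change only. Other genes given with every library (DDX58, IFIH1, EIF2AK2, GBP2, IFNB1, IFNE, CCL5, DCN, KRT18, CLDN7, LIPA) were chosen after their values were seen. Promoters came from a RefSeq table on GRCh38.p14 and were matched by symbol or gene ID. 1 gene of the lists is not reported here.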

Additional observations from a re-analysis of the deposited data

How the results depend on the processing

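The test called 0 interferon-stimulated genes with all 6 libraries and under every alternative run: DESeq2, limma, library totals, no filter, a filter of 5 FPKM, counts divided by 4, the replicate block and each library left out. Over all genes it called 0, against 3 with the replicate block and 0 to 5 with 1 library left out. The replicate numbers were not treated as pairs: same-numbered GIA and DMSO libraries correlated at 0.05, 0.03 and 0.10 in their deviations from the group means, and the block changed no call among members. The median log2 fold change of the members lay between -0.06 and 0.09 over leave-outs. ISG15, at 0.0006 with all libraries, was -0.00087 with no filter, -0.0170, -0.0172 and -0.0169 with limma at pseudocounts of 0.5, 0.1 and 1, and -0.0186 with the block. IFIT1 was -0.0071, -0.0077 and -0.0065 with limma at 0.5, 0.1 and 1, and -0.0095 with the block. OAS1 was 0.0019 with library totals and 0.0086 at 5 FPKM. With each library left out, the log2 fold change ran between -0.15 and 0.14 for ISG15, -0.13 and 0.091 for IFIT1, -0.087 and 0.17 for IFIT2, -0.055 and 0.15 for IFIT3, -0.11 and 0.10 for OAS1, -0.20 and 0.33 for OAS2, -0.14 and 0.18 for OASL, -0.18 and 0.031 for IFITM1, -0.11 and 0.012 for IFITM2, -0.071 and 0.014 for IFITM3 and -0.22 and 0.090 for IFI44. The cause of these shifts was not tested. In the other 9 of 20 named members the sign held in every setting. With 3 libraries a group, changes smaller than the intervals given would not have been detected, and members below 0.5 FPKM were compared only in the fit with no filter. Groups of 3 are too small for a check for single outlying libraries. Leaving out GIA libraries 1 and 2 together was chosen after seeing the data.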
